A study of Mus musculus with 4 samples.

Results

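The ubH2A ChIP library of E14 mES cells was compared with the input DNA library of the same cells over 6642 ubH2A peaks, which are all rows with 18 fields in the deposited ubH2A list, out of 30047 peaks in the lists of all 4 libraries. E14 is a mouse embryonic stem cell line of strain 129/Ola, grown without feeders at passage 3-5 on 0.5% gelatin in N2B27 medium that held 1 μM PD0325901 (a MEK inhibitor), 3 μM CHIR99021 (a GSK3 inhibitor) and 1000 U/ml of the cytokine LIF. Both libraries came from cells in this single condition, fixed for 10 min in 1% formaldehyde. The labels describe shearing with a Picoruptor and the paper describes fragmentation with micrococcal nuclease. The antibody against ubH2A was raised in rabbits by the authors, and none of the libraries is an IgG control. There was 1 library on each side, so no difference given here has a replicate error, no test between the libraries was possible, and all values describe these 2 libraries.

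ubH2A is histone H2A that carries a single ubiquitin on lysine 119. In ES cells it is written mainly by PRC1, whose catalytic subunits are Ring1A and Ring1B, and Dzip3 is another ligase for this residue. Deubiquitylases of the Usp family, Mysm1 and Bap1 remove it, and the mark is known for silent developmental genes with CpG-rich promoters.

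The listed heights give 67 M reads for ubH2A and 48.3 M for input DNA. The total reads of a library in a peak were divided by the length of the peak in kb and by this size (reads per kb per M), which is called density below, and the ratio is ubH2A density over input density. One malformed row hides the peaks of chromosome 1 beyond 85.3 Mb, of all of chromosome 10 and of chromosome 11 before 119.9 Mb, which were not analysed here. Intervals on medians are 95% order-statistic intervals over peaks and those on single ratios are 95% exact binomial intervals, and both cover counting or the choice of peaks, not a repeat of the experiment. In 23 peaks the listed ubH2A total is lower than the highest window of the same peak, and 18 of these lie within 19.0 kb of chromosome 9, so their ratios rest on totals that contradict the heights.

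The peaks that stand at the ends of the comparison differ in sequence, and 200 bases from each of 5 of them are given below as the plus strand of mm9. The first is from the ubH2A peak of highest density among those that overlap no input peak, and the second is from a strong peak in an intron. The sequences of Sfrp5 and Csf2ra are CpG-bearing, single-copy and close to a TSS, and the last is the satellite repeat where input reads pile up. Capitals mark CG dinucleotides in the Dyrk4, Sfrp5 and Csf2ra sequences and, in the other two, the 12-base word that is most frequent in the peak.
chr19:37519052-37519251, beside Hhex: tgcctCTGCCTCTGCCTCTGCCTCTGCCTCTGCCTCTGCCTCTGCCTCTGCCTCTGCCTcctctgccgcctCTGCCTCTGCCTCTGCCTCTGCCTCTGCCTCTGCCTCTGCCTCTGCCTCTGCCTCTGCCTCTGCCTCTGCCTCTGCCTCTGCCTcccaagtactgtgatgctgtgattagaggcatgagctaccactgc
chr6:126854537-126854736, Dyrk4 intron: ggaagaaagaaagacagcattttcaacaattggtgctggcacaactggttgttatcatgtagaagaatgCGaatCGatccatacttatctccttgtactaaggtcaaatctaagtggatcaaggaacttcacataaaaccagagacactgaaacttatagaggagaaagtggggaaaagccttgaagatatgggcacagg
chr19:42276236-42276435, Sfrp5 exon: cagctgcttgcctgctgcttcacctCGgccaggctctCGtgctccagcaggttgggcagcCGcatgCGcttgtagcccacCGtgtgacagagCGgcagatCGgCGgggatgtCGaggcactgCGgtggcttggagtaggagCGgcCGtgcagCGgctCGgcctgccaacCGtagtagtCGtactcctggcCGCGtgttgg
chr19:61304549-61304748, beside Csf2ra: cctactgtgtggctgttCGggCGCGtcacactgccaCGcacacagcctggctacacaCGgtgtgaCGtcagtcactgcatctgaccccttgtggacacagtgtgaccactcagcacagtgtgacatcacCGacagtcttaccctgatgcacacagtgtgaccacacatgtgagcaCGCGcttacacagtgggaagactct
chr9:3019149-3019348, proximal end of chromosome 9: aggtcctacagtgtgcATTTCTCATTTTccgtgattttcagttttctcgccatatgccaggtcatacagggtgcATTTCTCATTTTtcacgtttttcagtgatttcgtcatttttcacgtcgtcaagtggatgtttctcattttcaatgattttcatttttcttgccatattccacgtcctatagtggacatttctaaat

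The median density over the 6642 peaks was 4.77 reads per kb per M for ubH2A and 0.901 for input DNA, and the median ratio was 5.40 (quartiles 2.22 and 12.5). In 5147 peaks ubH2A was at least 2-fold higher (77.5% of all peaks) and in 93 it was at least 2-fold lower (1.4%). A ratio below 1 was found in 500 peaks (7.53%). These shares come from the library that the peaks were called on, so a ratio above 1 describes how the list was made. The input library had 0 reads in 292 peaks.

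The ubH2A density was nearly the same from peak to peak while the input density ranged widely. The quartiles of ubH2A density were 4.28 and 5.43, and those of input density were 0.380 and 2.38. No peak has a height under 32 extended reads (0.477 RPM), and a weaker ubH2A signal could not enter the list. Among the 1370 peaks with a ratio of 4 to 8 the median ubH2A density was 4.73, and among the 407 with a ratio of 0.5 to 1 it was 4.84. The median input density in these classes was 0.828 and 6.63. The order of the ratios is thus nearly the order of the input densities turned around, with a rank correlation of -0.960 over the 6642 peaks, in which input density is the denominator of the ratio.

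**Figure D1:**
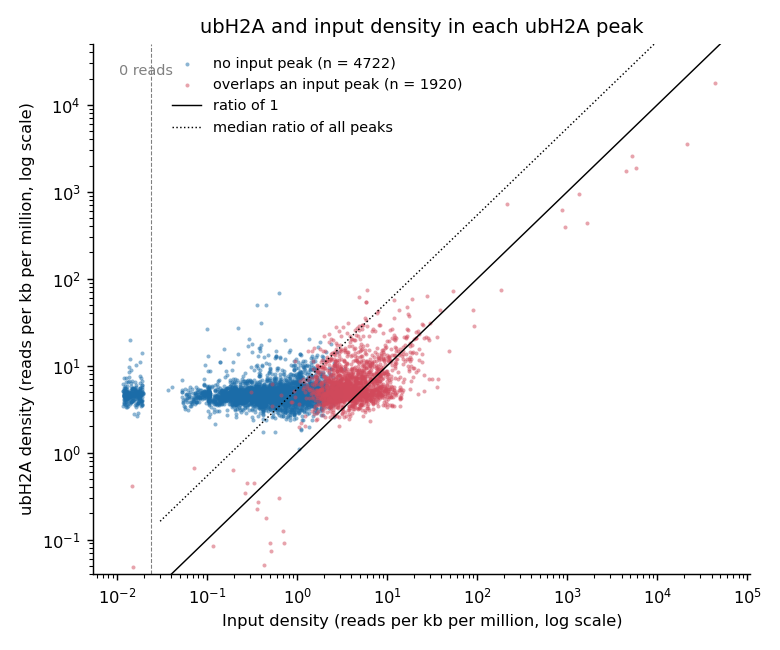
Each point is 1 ubH2A peak, with input density on the x axis and ubH2A density on the y axis (reads per kb per M reads, log scales) and peaks with 0 input reads to the left of the dashed line. The 4722 peaks with no input peak form a flat band near the median ubH2A density of 4.77, the 1920 that overlap an input peak lie near the line of ratio 1, and the 1 peak with 0 ubH2A reads is not drawn.

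An input peak overlapped 1920 of the ubH2A peaks, which is 28.9% (95% Wilson interval 27.8% to 30.01%). The median ratio of these was 1.48 and that of the 4722 others 8.56. All 93 peaks at least 2-fold lower than input were among the overlapping ones. Input peaks are called on input reads, the denominator of the ratio, so this split follows in part from how they were called. A Ring1B peak overlapped 44.2% of ubH2A peaks and a Dzip3 peak 41.0%. At 2690 peaks (40.5%) no other library had a peak, and their median ratio was 9.13 (8.65 to 9.61). The 629 peaks with a Ring1B peak alone had a median ratio of 8.44 (7.72 to 9.22), the 373 with a Dzip3 peak alone 7.85 (6.84 to 8.79) and the 1030 with both 7.71 (7.20 to 8.18). The 1133 peaks found in all 4 lists had the highest median ubH2A density of these sets, 6.81, and a median ratio of 1.63 (1.57 to 1.71). The median input density of this set was 4.21, against 0.501 where no other library had a peak.

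The sum of reads ran against the median. All ubH2A peaks together held 6.81% of the ubH2A library and 16.4% of the input library, a summed ratio of 0.416. A pair of sites held most of these reads. The peak at chr2:98506218-98507714 held 1777750 ubH2A and 3192770 input reads, and the one at chr9:2999976-3038520 held 1128410 and 3111720. Both sites together held 13.1% of all input reads, 4.34% of ubH2A, 3.70% of Ring1B and 4.15% of Dzip3 reads, so all 3 ChIP libraries were poorer in them than input DNA. Leaving out the 55 peaks with 1000 input reads or more, the other 6587 gave a summed ratio of 2.55. The scaled fold that the authors list equals the ubH2A reads plus 1 over 1.53 times the input reads plus 1, to within 0.000499%. The ratio of library sizes is 1.39, and without the reads of both sites it is 1.53. Ratios given here are thus 1.10 times those on the listed scale before the added read.

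Satellite and telomeric repeats differed in ratio. The 12-base word of the chromosome 9 site, ATTTCTCATTTT, belongs to the major satellite, the AT-rich repeat of mouse pericentromeric heterochromatin. It was present on either strand in 10 ubH2A peaks, which is 0.151%, against 0.0348% of 7820557 genome windows of 282 bp. All 10 had a ratio below 1, from 0.169 to 0.616. The lowest was chr12:3109845-3110325, with 114519 ubH2A and 488850 input reads. The telomeric word GGGTTAGGGTTA was found in 67 peaks (1.01%) against 0.0152% of the windows. Both words, and the one used for the Hhex peak below, were taken from peaks of this list. Peaks also vary in length while the windows do not, so the shares of peaks and windows are not like for like. The telomeric peaks had a median ratio of 4.65, ranging from 0.159 to 12.4, and each of the 67 overlapped a Ring1B and a Dzip3 peak. The lowest ratio outside the contradictory totals was also telomeric in sequence, at chr4:152527035-152527449, with 157 ubH2A and 713 input reads (0.159, 0.132 to 0.189). Telomeric repeats were therefore found on both sides of a ratio of 1, and satellite repeats on the lower side alone.

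The highest ratios were in sequence of higher G+C content and fewer copies. The median G+C content rose from 36.9% in the 93 peaks with a ratio of 0.5 or less to 54.4% in the 611 with a ratio over 32. The share of 31-base words of a peak that occur more than once in the genome had a median of 75.4% over all peaks. It was 89.4% at a ratio of 1 to 2 and 14.5% at a ratio over 32. The rank correlation of the ratio with G+C content was 0.52 over all 6642 peaks and 0.30 over the 4722 with no input peak. The base composition of the fragments and the mappability of their reads move with the ratio, and their part in it was not tested. In the 1594 peaks with under 10% repeated words the median ratio was 11.9, and 82.6% of them had no peak in any other list.

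**Figure D2:**
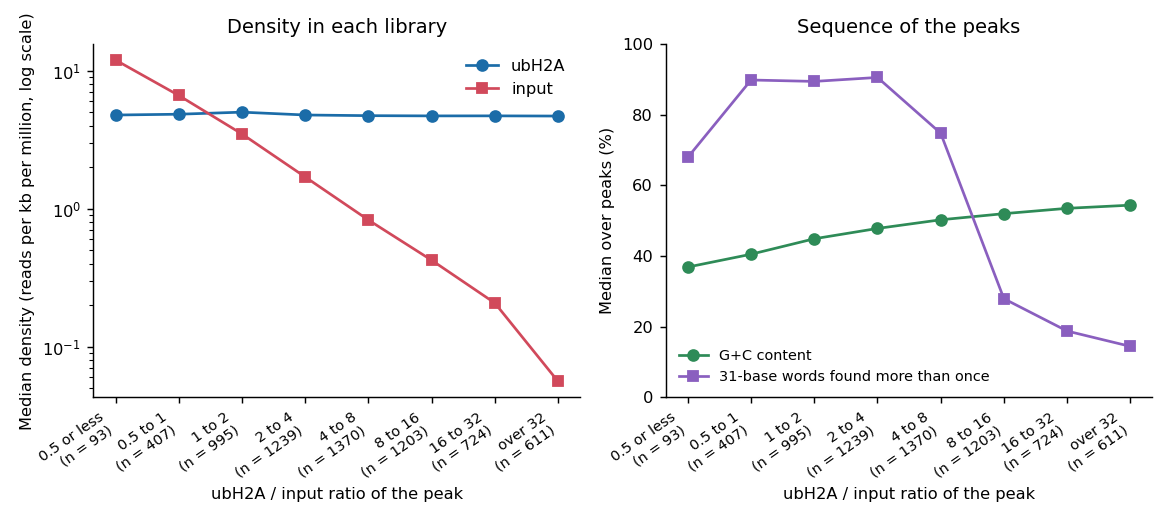
Peaks are grouped on the x axis by their ubH2A / input ratio. The left panel gives the median density of ubH2A and input (log scale), where ubH2A stays between 4.70 and 5.01 and input falls from 11.97 to 0.0560; the right panel gives the median G+C content, rising from 36.9% to 54.4%, and the median share of repeated 31-base words, falling from 90.5% at a ratio of 2 to 4 to 14.5% above 32.

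By distance from protein-coding genes, the median ratio was highest next to the TSS. It was 7.72 (6.12 to 9.13) for the 271 peaks within 1 kb, 6.31 (5.31 to 7.20) for the 546 at 1 to 4 kb, 5.72 (5.31 to 6.21) for the 1715 at 4 to 20 kb, 4.87 (4.56 to 5.17) for the 2605 at 20 to 100 kb and 5.44 (5.10 to 5.88) for the 1505 beyond 100 kb. The median ubH2A density lay between 4.70 and 4.80 in all 5 classes. Input density was 0.621 within 1 kb and 1.03 at 20 to 100 kb, so the classes differed mainly in input. Among peaks with no input peak the medians were 9.97 (8.85 to 11.6) within 1 kb and 8.05 (7.51 to 8.48) beyond 100 kb, a smaller gap. Among peaks with under 10% repeated words they were 15.5 (11.4 to 22.0) and 10.8 (9.19 to 11.9). When the TSSs of all annotated genes were used, pseudogenes and non-coding genes included, the order turned, and the median within 1 kb was 0.808 times that beyond 100 kb.

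Counted by the nearer peak edge, ubH2A peaks within 1 kb of a TSS were few, and their number per Mb was the highest of the distance classes. They made up 4.08% of the list, where 3.02% of the analysed genome lies, which is 4.04 peaks per Mb. The next 3 classes held 3.53, 3.57 and 3.72 peaks per Mb. The genome was counted by base, so peak length adds to the count of the narrow class. By the midpoint of the peak, the regions within 1 kb of a TSS held 3.52 per Mb, which is not above the edge counts of those classes. Midpoint counts of those classes are not given here. Beyond 100 kb there were 1.88 peaks per Mb, 0.623 times the share of the genome. Peaks with no other library's peak made up 50.6% within 1 kb and 36.9% beyond 100 kb, while the share that overlapped a Dzip3 peak went from 30.6% to 45.6%.

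**Figure D3:**
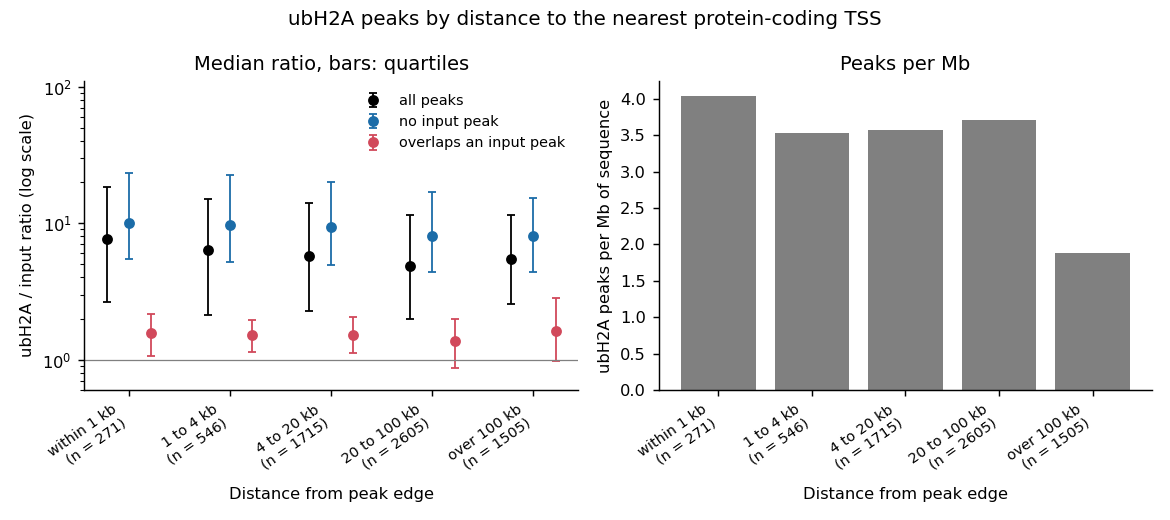
The left panel shows the median ubH2A / input ratio (log scale, bars from the first to the third quartile) by distance between the peak edge and the closest protein-coding TSS, for all peaks, those with no input peak and those that overlap one. The right panel shows ubH2A peaks per Mb of analysed sequence, which lie between 3.53 and 4.04 up to 100 kb and at 1.88 beyond.

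By gene feature at the midpoint of the peak, coding exons stood highest. The 164 peaks in coding exons had a median ratio of 11.5 (9.49 to 16.03) and a median input density of 0.399, and 93.9% of them were at least 2-fold higher in ubH2A. Peaks within 1 kb of a TSS had 7.57 (5.93 to 9.13, n = 236), introns 6.53 (6.12 to 7.02, n = 2424), UTRs 6.39 (4.78 to 10.6, n = 75) and intergenic sequence 4.65 (4.41 to 4.88, n = 3648). The lowest median was that of the 95 peaks in exons of non-coding transcripts, 2.22 (1.84 to 3.41), and 55.8% of these overlapped an input peak. The neighbouring intervals of TSS, intron and UTR peaks overlap one another, and the interval for coding exons lies above all but that of UTRs.

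Coding exons held 7.29 ubH2A peaks per Mb, 2.42 times their share of the genome, and 69.5% of these peaks were in no other list. Non-coding exons held 11.9 per Mb. TSS regions had 3.52, introns 3.07, UTRs 2.86 and intergenic sequence 2.82 per Mb. Coding-exon peaks were also the richest in G+C, with a median of 57.8% against 47.8% in intergenic peaks, and their median share of repeated words was 0 against 84.8%. With under 10% repeated words in both, the median ratio was 17.8 (12.2 to 23.8) in coding exons and 10.4 (9.61 to 11.3) in intergenic sequence. Under the same limit it was 15.3 (11.3 to 20.4) within 1 kb of a TSS, 15.1 (7.69 to 24.1) in UTRs and 12.4 (11.5 to 13.5) in introns. The intervals of these classes overlap that of coding exons.

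The coding-exon peaks of highest density with few repeated words and no input peak were small in reads, and they were chosen after their values were seen. In Asb4, which encodes an ankyrin-repeat protein of ubiquitin ligase complexes, the peak at chr6:5373455-5373663 held 79 ubH2A and 5 input reads, a ratio of 11.4 (4.68 to 36.0). In Fam171a1 the peak at chr2:3143007-3143221 held 79 ubH2A reads and 0 input reads. The exact lower limit of its ratio was 15.1, and the ratio is 19.0 when input is set to 3 reads. Cacna1i, a T-type calcium channel, had 73 against 2 reads, a ratio of 26.3 (7.02 to 221). Ep300, the p300 acetyltransferase, had 72 against 2, a ratio of 25.9 (6.92 to 218). With so few input reads the intervals of these peaks overlap throughout.

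**Figure D4:**
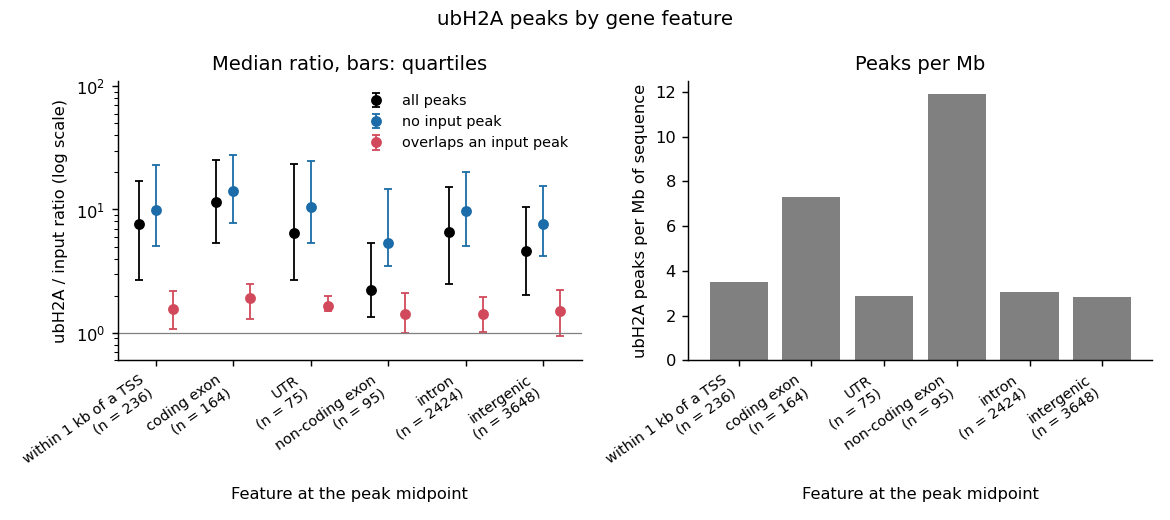
The left panel shows the median ubH2A / input ratio (log scale, bars from the first to the third quartile) by the feature at the midpoint of each peak, for all peaks and split by overlap with an input peak. The right panel shows peaks per Mb of each feature, highest in non-coding exons (11.9) and coding exons (7.29).

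Longer peaks had lower ratios. The median ratio was 7.31 (6.90 to 7.69) for the 2645 peaks under 250 bp, 5.54 (5.17 to 5.91) for the 2079 of 250 to under 350 bp, 4.10 (3.72 to 4.56) for the 1276 of 350 to under 500 bp, 2.48 (2.17 to 2.92) for the 495 of 500 to under 1000 bp and 1.33 (1.22 to 1.55) for the 147 of 1000 bp and over. No 2 neighbouring intervals overlap. Both densities were higher in the longest class, 10.0 for ubH2A and 7.28 for input, against 4.77 and 0.621 under 250 bp. The share with an input peak rose from 15.7% in the shortest class to 94.6% in the longest. The share with a Ring1B peak rose from 26.0% to 99.3%, and every peak of 1000 bp and over met a Dzip3 peak.

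Split by overlap with an input peak, the ratio did not fall steadily with length. With no input peak the medians from the shortest to the longest class were 9.22 (8.77 to 9.65), 8.25 (7.75 to 8.57), 8.0, 9.31 (7.93 to 10.3) and 7.71, the last from 8 peaks, so the intervals of the shortest class and the next lie apart. With an input peak they were 1.31 (1.22 to 1.39), 1.49, 1.62 (1.53 to 1.71), 1.58 and 1.29 (1.18 to 1.49). Among peaks with under 10% repeated words the medians did fall in every step, from 12.6 (11.9 to 13.9) through 11.8, 9.66 and 6.68 to 0.957 (0.144 to 7.23), the last from 7 peaks. In this set the share with an input peak rose from 0.748% to 100%.

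**Figure D5:**
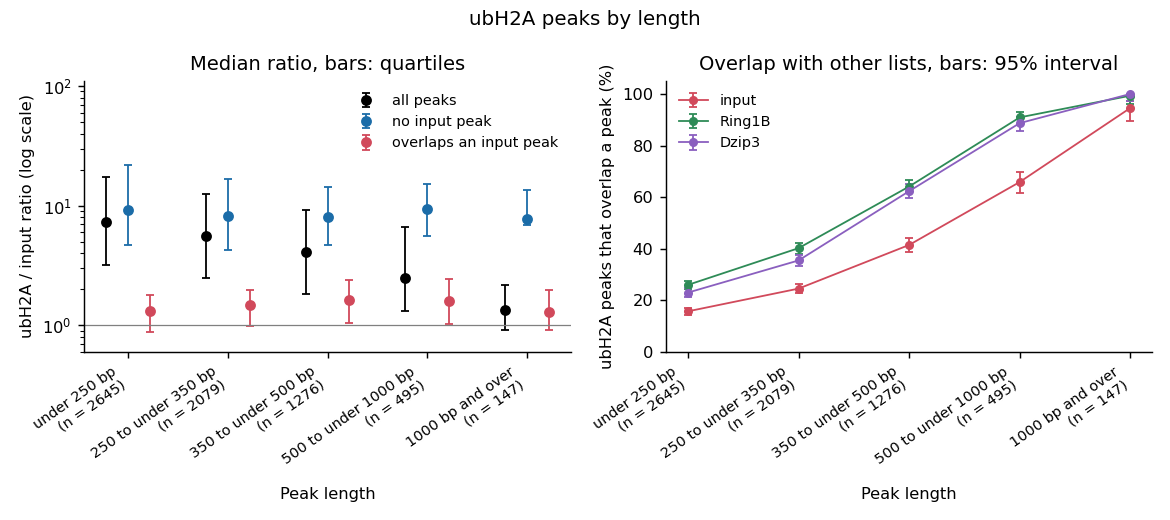
The left panel shows the median ubH2A / input ratio (log scale, bars from the first to the third quartile) by peak length, falling from 7.31 to 1.33 over all peaks and staying near 8 or 9 for peaks with no input peak. The right panel shows the percentage of ubH2A peaks that overlap an input, Ring1B or Dzip3 peak, with 95% Wilson intervals, rising with length for all 3.

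The 5 longest peaks all overlapped an input peak, and from 21.6% to 92.5% of their 31-base words are repeated in the genome. The longest, the satellite site of chromosome 9, spans 38544 bp with a ratio of 0.261. A pair of peaks of 13596 and 7687 bp lies on chromosome 8 between 19923044 and 19983579, with ratios of 1.29 (1.25 to 1.33) and 2.34 (2.27 to 2.40). The peak in an intron of Mid1, a ubiquitin ligase of microtubules, spans 6746 bp of the X chromosome with 4050 ubH2A and 1318 input reads (2.21, 2.08 to 2.36). One of 6705 bp on the Y chromosome had 0.740 (0.719 to 0.762). Long peaks with a high ratio were exceptions. At chr17:39979838-39985992, a G+C content of 63.6% went with 25515 ubH2A and 1457 input reads, a ratio of 12.6 (11.97 to 13.3), and an intron of Tcte2 at chr17:13743386-13746229 had 10222 against 807 reads (9.13, 8.49 to 9.82). Both of these overlapped an input, a Ring1B and a Dzip3 peak. The next by length, chr18:13454943-13457520, had 2185 against 80 reads (19.7, 15.7 to 24.9) and overlapped a Ring1B and a Dzip3 peak but no input peak.

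Chromosomes differed in ratio. The median was 0.817 (0.741 to 1.01) for the 56 peaks of the Y chromosome, 2.03 (1.75 to 2.32) for the 552 of the X chromosome, 2.87 (2.47 to 3.12) on chromosome 14 and 2.88 (2.49 to 3.44) on the analysed part of chromosome 1. It was 11.2 (9.16 to 14.6) on chromosome 19 and 9.65 (8.44 to 10.99) on chromosome 15. The share with an input peak was 91.1% on Y, 56.0% on X and 9.35% on chromosome 19. The 10 windows of 1 Mb with most ubH2A peaks held 1077 peaks, or 16.2%, and 70.1% of these overlapped an input peak. The most crowded, from 19 to 20 Mb of chromosome 8 among defensin genes, held 193 peaks with a median ratio of 1.06. The windows from 120 to 121 and 121 to 122 Mb of the X chromosome held 113 and 96 peaks with medians of 1.17 and 1.02. Outside the 10 windows the median ratio was 6.90.

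Among the peaks with no input peak, the highest ubH2A density was 69.1, at chr19:37518985-37519317, 7.76 kb from the TSS of Hhex, a homeodomain factor of endoderm and blood. It held 1539 ubH2A, 10 input, 61 Ring1B and 46 Dzip3 reads, and the ratio was 111 (60.1 to 232). It is a tandem array of the CTGCCT unit printed above, with 29 plus-strand copies of CTGCCTCTGCCT, a word present in 1.28% of ubH2A peaks and 1.44% of the genome windows. The balance was the other way only 229 bp further on. There the Dzip3 peak from 37519546 to 37519939 held 865 Dzip3, 392 Ring1B, 104 ubH2A and 1 input reads.

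The next 7 peaks by density all overlapped a Ring1B peak, unlike the one beside Hhex. In an intron of Magi2, a scaffold protein of synapses, there were 918 ubH2A, 745 Ring1B, 408 Dzip3 and 6 input reads, and the ratio was 110 (50.5 to 301). The intron of the kinase gene Dyrk4 shown above had 761 ubH2A, 416 Ring1B, 577 Dzip3 and 4 input reads (137, 53.3 to 504). The others were intergenic and are named only by the closest protein-coding TSS. The peak 62.1 kb from Tbx15, a T-box factor, had 437 against 4 reads (78.7, 30.5 to 290). The one 142 kb from Pde1c, a phosphodiesterase, had 683 against 4 (123, 47.8 to 453). The peak 26.4 kb from Nrsn1 had 370 ubH2A reads against 1 input read (267, 47.6 to 10558). The peak 1146 kb from Celf2, an RNA-binding protein, had 292 ubH2A reads against 14 input reads. The one 132 kb from Ccng2, a cyclin, had 292 against 3. In these 8 peaks between 81.4% and 100% of the 31-base words are repeated in the genome.

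Peaks within 1 kb of a TSS and with no input peak were weaker, at densities from 5.89 to 12.8 for the first 8. The highest belonged to Gm17621, 47 bp from its TSS, with 293 ubH2A and 6 input reads (35.2, 15.97 to 96.7). Another 4 lay at Muc19, which encodes a gel-forming mucin. The densest of these held 689 ubH2A, 76 input and 2423 Ring1B reads (6.53, 5.15 to 8.39), and the other three had ratios of 9.68, 9.65 and 5.50. The peak 202 bp from the TSS of Csf2ra, the alpha chain of the GM-CSF receptor, had 107 ubH2A and 0 input reads. The exact lower limit of its ratio was 20.5, and the ratio is 25.7 when input is set to 3 reads. The peak 307 bp from the TSS of Sfrp5, a secreted Wnt inhibitor, had 79 ubH2A, 2 input and 197 Ring1B reads (28.5, 7.62 to 239). The Csf2ra and Sfrp5 peaks held no repeated 31-base words and overlapped Ring1B peaks, and Sfrp5 has 18 CG dinucleotides in the 200 bases printed.

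Further promoter peaks without repeated words, chosen after their values were seen, were of like size. Ptgir, the prostacyclin receptor, had 172 ubH2A against 5 input reads (24.8, 10.4 to 77.3), Arpc3, a subunit of the actin-nucleating Arp2/3 complex, 74 against 2 (26.7, 7.12 to 224) and Fasn, fatty acid synthase, 71 against 3 (17.1, 5.60 to 84.7). Of these 3, only Ptgir overlapped a Ring1B peak. In the mitochondrial genome the peaks in mt-Co1 and mt-Nd5 had ratios of 2.77 (1.68 to 4.79) and 2.72 (1.60 to 4.86). Both count among the peaks at least 2-fold higher in ubH2A. Whether reads in mitochondrial DNA stem from ubH2A was not tested, so these ratios are not given as ubH2A enrichment.

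Of 18958 nuclear protein-coding genes with an analysed TSS, 627 (3.31%) had a ubH2A peak within 4 kb, and 566 had one with no input peak on it. None of the 30 Hox genes analysed had one (up to 11.4% by the Wilson interval), none of 35 developmental factors (up to 9.89%), none of 17 pluripotency factors (up to 18.4%), none of 22 ligases, PRC1 members and deubiquitylases (up to 14.9%) and none of 9 PRC2 members (up to 29.9%). All these limits are above the share of all genes, so the lists could not be told from it. Among 319 vomeronasal receptors there was also none (up to 1.19%), and 3 of 936 olfactory receptors had one (0.321%, 0.109% to 0.938%), less than the share of all genes. The genes named Zfp, zinc finger proteins, had 14 of 343 (4.08%, 2.45% to 6.73%) and symbols that begin like ribosomal proteins had 2 of 128 (1.56%, 0.430% to 5.52%).

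The 2 ribosomal symbols were Rps2-ps5, by its name a pseudogene, with 558 ubH2A and 70 input reads (5.74, 4.47 to 7.47), and Rps6ka1, a kinase, with 83 and 2 (29.9, 8.02 to 251). Of the olfactory receptors, Olfr1331 had 70 and 1 reads (50.4, 8.76 to 2020) and Olfr55 61 and 11 (4.0, 2.08 to 8.42), while the peak near Olfr843 is one of the contradictory totals of chromosome 9. At Zfp64 there were 74 ubH2A and 3 input reads (17.8, 5.85 to 88.1), at Zfp358 69 and 1 (49.7, 8.63 to 1992) and at Zfp580 107 and 15 (5.14, 2.98 to 9.5). Clustered protocadherins, adhesion proteins of neurons, had 2 of 24 (8.33%, 2.32% to 25.8%). The peaks near Pcdha11 and Pcdhgc5 each had 62 ubH2A and 0 input reads. The exact lower limit of each ratio was 11.8, and each ratio is 14.9 when input is set to 3 reads. The genes that the paper follows had no ubH2A peak within 4 kb, and the nearest was 486 kb from Neurod1, 201 kb from Neurog1, 113 kb from Cdh2, 98.6 kb from Bspry and 161 kb from Shank3. These nearest peaks held from 63 to 186 ubH2A reads and from 0 to 36 input reads. Reads of both libraries are listed closer by where Ring1B has a peak at the TSS, with 42 ubH2A and 6 input reads at Neurog1 (5.04, 2.13 to 14.5) and 29 and 2 at Shank3 (10.4, 2.64 to 90.4). The paper itself measured ubH2A at the Neurod1, Neurog1 and Cdh2 promoters by ChIP-qPCR. After knockdown of Dzip3 it reports a decline at Cdh2 and Neurod1 and no appreciable change at Neurog1.

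The absence of a listed peak did not mean an absence of ubH2A reads. The Ring1B list gives the reads of both libraries at sites chosen on Ring1B, which are however listed with a fold over the same input. Of 2404 Ring1B peaks within 1 kb of a TSS, 2239 overlapped no ubH2A peak. In these the median density was 0.924 for ubH2A and 0.151 for input, and the median ratio was 6.48 (6.12 to 6.84). The 165 that overlapped a ubH2A peak had 5.59 and 2.06 and a lower median ratio of 2.94 (2.45 to 3.48). The median G+C content was 64.3% without and 52.7% with a ubH2A peak, and CG dinucleotides numbered 7.41 and 1.27 per 100 bases. The median share of repeated words was 0 without and 69.4% with a ubH2A peak. Input had 0 reads in 487 of the 2239 sites and in 3 of the 165, and such sites rank highest in a median ratio. Promoter Ring1B sites outside the ubH2A list thus had a higher ubH2A / input ratio, at a lower density of both libraries. The part of sparse input and of repeats in this gap was not tested.

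Around the Hox genes, which specify position along the body axis, 91 Ring1B peaks lay within 4 kb of a TSS of 25 of the 30 genes. They held 2355 ubH2A and 589 input reads, with a median ratio of 3.06 (2.16 to 3.78). The 135 peaks at 30 of 35 developmental factors had 3987 and 849 reads and a median ratio of 3.75 (3.17 to 4.32). Over all 3040 Ring1B peaks near protein-coding genes the median ratio was 5.47 (5.16 to 5.76). The ubH2A density did not exceed 1.69 at Hox and 1.95 at developmental genes, below the 10th percentile of ubH2A peaks, 3.77. By ubH2A density in the Ring1B peak nearest the TSS, the first 4 Hox genes were Hoxc4 with 34 ubH2A and 2 input reads (12.2, 3.14 to 105.2), Hoxc10 with 83 and 8 (7.48, 3.62 to 17.9), Hoxd12 with 30 and 2 (10.8, 2.74 to 93.3) and Hoxd1 with 28 and 0. Of the first 4 developmental genes, 3 were Gata3, a T cell factor, with 21 and 9 (1.68, 0.738 to 4.17), Lhx2, a forebrain factor, with 26 and 0, and Dlx5, a factor of bone and brain, with 54 and 2 (19.5, 5.13 to 165). The ratio was below 1 in 8 of the 91 Hox peaks and in 13 of the 135 others. ubH2A was at least 2-fold above input in 58 of the 91 Hox peaks and in 101 of the 135 at developmental factors, against 2503 (82.3%) of all 3040.

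Genes with the most ubH2A peaks in their bodies were members of multi-copy families or very long models. C130026I21Rik on chromosome 1 held 127 peaks in 278 kb with a median ratio of 1.89, and 92 of these overlapped an input peak. Gm20388 on chromosome 8, a model of 4435 kb that spans many genes, held 96 peaks with a median ratio of 13.1, and 6 of these overlapped an input peak. Gm10406 held 52 peaks with a median of 2.13, Gm2792 48 with 4.10, Gm3739 33 with 1.89, Gm2974 32 with 1.71 and Gm13242 27 with 1.39. Tmem181b-ps held 25 peaks in 49.9 kb, with a median of 3.65, and none overlapped an input peak. Tmem181b-ps lies within Gm2792, so its peaks are among the 48 counted there. Gm3739 overlaps Gm10406 in part, and peaks in the shared stretch count for both genes. In the members of these families the share of repeated words had medians from 54.4% to 100%, and the share of reads that belongs to each copy is uncertain.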

How the data were processed

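E14 mES cells under 2i + LIF gave 4 libraries, 1 each for ubH2A, Ring1B, Dzip3 and input DNA. Alignment to mm9 and peak calling with the Partek Genomics Suite, library by library, were done by the authors. The authors deposited counts (total reads of every library in a peak and the highest number of extended reads in a window), the height as RPM, a p-value and a scaled fold ratio against input DNA, and the percent of a peak covered by the peaks of other libraries. Overlaps were read from these percentages (above 0). The p-value, which compares ubH2A with the same input library, served only to rank peaks for an alternative.

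Library sizes were taken as extended reads over RPM. Distances run from the nearer peak edge to a TSS of a protein-coding gene of GENCODE vM1 for mm9. Features were set at the midpoint, in the order TSS within 1 kb, coding exon, UTR, non-coding exon, intron, intergenic. Words of 31 bases were counted over the whole genome on both strands. The input list was used only through the reads and percentages in the other lists. No p-value was computed, since peaks are not replicates. The functions were tested on simulated data.

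Peaks named are the 8 of highest ubH2A density without an input peak, 8 such within 1 kb of a TSS, the 5 lowest ratios, the 5 longest, and the nearest to 5 genes of the paper. Genes named are up to 4 of each list by ubH2A density and the 10 with most peaks in the gene body, except that 2 of the latter are left to the counts. At Ring1B peaks the 4 Hox and 4 developmental genes of highest ubH2A density are named, a rule added after the values were seen. Of the 5 lowest ratios, 4 are among the contradictory totals and are not named singly. A few items that these rules name are not reported here. Members and lists were chosen with earlier results of these data known. Tables were handled in pandas 2.3.3 and numpy 2.4.6 under Python 3.11.15, words were counted with numba 0.67.0, exact intervals came from scipy 1.17.1, and plots from matplotlib 3.10.9.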

Additional observations from a re-analysis of the deposited data

How the results depend on the processing

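No paired analysis was possible because ubH2A and input DNA have 1 library each. Leaving out a library was not possible either, and the depth of 48.3 M input reads leaves 1 to 3 input reads in many of the single peaks named. The alternatives that use the listed scale without the added read, that leave out the 23 contradictory totals or peaks with 1000 input reads or more, or that keep peaks with under 10% repeated words were chosen after seeing the data. Of the values of the main results under an alternative, 52 stayed within their limits, 36 moved and 5 turned. The causes were not tested, apart from counts that fall because fewer peaks are taken.

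The median ratio of 5.40 moved to 5.04 with 1 read added to both libraries, 8.56 without input-overlapping peaks, 12.2 in the stronger 50% of peaks, 6.90 outside the 10 densest windows, 3.65 with the median of input-overlapping peaks set to 1, 4.71 with the listed fold, 3.56 with at least 5 input reads, 4.91 on the listed scale without the added read and 11.9 with under 10% repeated words. The summed ratio of 0.416 turned above 1 without input-overlapping peaks (6.92), in the stronger 50% (4.97), with under 1000 input reads (2.55) and with under 10% repeated words (4.29). It was 0.400 outside the densest windows and 0.405 with at least 5 input reads. Peaks at least 2-fold higher fell from 5147 to 3295 in the stronger 50% and 1549 with under 10% repeated words. Peaks at least 2-fold lower went from 93 to 0 without input-overlapping peaks and to 0 in the stronger 50%. They numbered 271 with input-overlapping peaks set to 1 and 7 with under 10% repeated words. The stronger 50% of peaks were taken by the listed p-value of ubH2A against the same input library. This ranking itself favours peaks with a high ratio and few input reads. The values in the stronger 50%, here and below, therefore do not test the ratio or the input overlap independently.

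The median within 1 kb of a TSS over that beyond 100 kb was 1.42 (1.04 to 1.79) and turned to 0.808 with the TSSs of all genes. The median in coding exons over that in intergenic sequence, 2.48, moved to 1.82 without input-overlapping peaks and 1.71 with under 10% repeated words. The median under 250 bp over that at 1000 bp and over, 5.48, moved to 1.20 without input-overlapping peaks (8 long peaks), 7.84 in the stronger 50% and 13.2 with under 10% repeated words (7 long peaks, whose median ratio then is 0.957).

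The share overlapping an input peak, 28.9%, moved to 26.7% with at least 50% of the peak covered, 9.88% in the stronger 50%, 20.9% outside the densest windows and 3.39% with under 10% repeated words. For Ring1B, 44.2% moved to 41.6%, outside the densest windows 41.0% and with under 10% repeated words 12.05%. For Dzip3, 41.0% moved to 38.1%, 38.8%, 37.2% and 8.59% under the 4 settings in the order given for input. Genes with a ubH2A peak within 4 kb, 627, became 240 within 1 kb, 1276 within 10 kb and 7394 within 100 kb.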
